A study of Mus musculus with 6 samples.

Results

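Open chromatin was examined around 10 mouse genes that make or remove reactive oxygen species in vascular smooth muscle cells: Nox1, Nox4, Cybb, Cyba, Sod1, Sod2, Sod3, Hmox1, Nqo1 and Nfe2l2. Members of the set were the peaks that overlapped the body of 1 of these genes or the 20 kb on either side of it, on mm10. Peaks of the 6 libraries were merged where they shared at least 1 base, which left 42 regions of 85174 in all. ATAC-seq reads out open chromatin from the places where the Tn5 transposase inserts. It was run on primary mouse vascular smooth muscle cells bought from a supplier, with 50000 cells per assay and a Tn5 reaction of 30 min. Cells of 3 libraries had received a negative control, and cells of the other 3 an siRNA against Arid3a, which encodes an AT-rich interaction domain DNA-binding protein. The knockdown replicates received si-Arid3a#1, si-Arid3a#2 and si-Arid3a#3, so each library of that group stands for a different siRNA. Cells were kept for 24 h after transfection. The labels also describe an angiotensin II treatment without naming the libraries that received it, so it was not used. They give no strain, age or genotype, and leave unsaid whether the replicates were separate cultures. The p-values below thus weigh the groups against the spread of these 6 samples alone, and that spread may be technical. A peak list does not show whether the knockdown worked, because RNA interference acts on the messenger RNA.

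NADPH oxidases pass electrons from NADPH to oxygen and so make superoxide or hydrogen peroxide. Nox1, Nox4 and Cybb (NOX2) encode catalytic subunits, and Cyba encodes p22phox, the membrane partner that these subunits need. In the vessel wall NOX1 and NOX4 are the forms known from smooth muscle, while NOX2 is best known from phagocytes. Superoxide dismutases turn superoxide into hydrogen peroxide in the cytosol (Sod1), the mitochondrion (Sod2) and outside the cell (Sod3). Nfe2l2 encodes NRF2, the factor that binds antioxidant response elements, and Hmox1 (heme oxygenase 1) and Nqo1 (a quinone reductase) are 2 of its best known targets.

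The control libraries held 33248 to 52091 peaks and the knockdown libraries 41629 to 51279, at an estimated 0.950 to 2.00 and 1.19 to 1.98 megatags. Control replicate 2 and knockdown replicate 3 were the shallowest, and each peak list was called on its own library. Among markers of the labelled cell type, the promoter windows of Acta2, Cald1 and Smtn carried a peak in 6 of 6 libraries, that of Cnn1 in 4, that of Lmod1 in 1 and that of Des in 0. Without a promoter window, Myocd had a peak within 250 bases of a gene end in 4 of 6 libraries, and Myh11, Tagln and Actg2 in 0 of 6. Of the endothelial genes, Kdr had a promoter peak in 2 libraries, Tek in 1 and Tie1 in 0, and Cdh5 and Pecam1 had none at a gene end. The macrophage and leukocyte genes Ptprc, Itgam and Laptm5 and the epithelial genes Epcam and Krt8 had a promoter peak in 0 of 6 libraries, whereas Cd68 had one in 5 of 6. Of the fibroblast markers, Col1a2 had one in 6 of 6 and Pdgfra and Dpt in 0 of 6. Without a promoter window, Col1a1 had a peak at a gene end in 4 of 6 libraries and Lum in 0 of 6. Likewise read at the gene ends, the leukocyte gene Spi1 had a peak in 1 library. Adgre1 and Csf1r of the same list and the epithelial gene Cdh1 had one in 0 of 6.

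The sequences before the annotated starts are shown to set genes with an open start beside genes without a peak there. RefSeq promoter windows on GRCm38.p6, the assembly of mm10, were used for 8 of the 10 genes, and Sod3 and Hmox1 were without one. The window takes 1 start per gene, and that of Nox1, Nox4 and Cybb lay inside the span of the RefSeq gene rather than at its end. Each run below holds the 250 bases before the start, read 5′ to 3′ on the strand of the gene. Sod2, Nqo1 and Nfe2l2, with a start peak in 6 of 6 libraries, come first, then Sod1, whose start was open less often, then Nox4 and Cybb, whose starts carried no peak. Capitals mark the motifs found on either strand among the GC box GGGCGG, the TATA box TATAAA, the AP-1 site TGANTCA, the antioxidant response element core TGACNNNGC, the E-box CACGTG and the AT-rich ATTAAA.
Sod2, chr17:13007589-13007838, plus strand: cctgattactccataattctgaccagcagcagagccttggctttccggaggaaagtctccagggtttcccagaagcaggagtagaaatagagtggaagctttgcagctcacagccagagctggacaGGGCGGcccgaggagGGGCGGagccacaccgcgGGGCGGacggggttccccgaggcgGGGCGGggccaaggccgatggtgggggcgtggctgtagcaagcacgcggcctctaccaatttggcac
Nqo1, chr8:107403206-107403455, minus strand: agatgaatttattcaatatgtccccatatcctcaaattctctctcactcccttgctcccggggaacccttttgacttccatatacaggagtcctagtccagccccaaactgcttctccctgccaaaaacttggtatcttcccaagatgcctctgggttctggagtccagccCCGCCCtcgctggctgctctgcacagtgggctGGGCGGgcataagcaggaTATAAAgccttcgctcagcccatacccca
Nfe2l2, chr2:75704664-75704913, minus strand: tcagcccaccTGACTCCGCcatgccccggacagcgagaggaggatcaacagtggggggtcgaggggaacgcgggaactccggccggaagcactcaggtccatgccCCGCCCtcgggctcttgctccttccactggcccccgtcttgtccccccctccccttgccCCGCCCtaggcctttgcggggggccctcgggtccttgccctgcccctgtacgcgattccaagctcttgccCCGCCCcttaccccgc
Sod1, chr16:90220512-90220761, plus strand: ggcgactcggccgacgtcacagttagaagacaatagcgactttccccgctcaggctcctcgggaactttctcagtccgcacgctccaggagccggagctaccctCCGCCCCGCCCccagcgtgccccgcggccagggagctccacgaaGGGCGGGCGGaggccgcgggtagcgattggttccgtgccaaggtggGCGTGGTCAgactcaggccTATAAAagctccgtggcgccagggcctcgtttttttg
Nox4, chr7:87246399-87246648, plus strand: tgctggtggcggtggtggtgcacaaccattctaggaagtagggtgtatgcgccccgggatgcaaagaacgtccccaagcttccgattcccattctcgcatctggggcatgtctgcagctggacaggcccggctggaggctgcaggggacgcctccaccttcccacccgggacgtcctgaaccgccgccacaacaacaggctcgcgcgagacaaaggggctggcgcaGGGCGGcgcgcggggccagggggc
Cybb, chrX:9469325-9469574, minus strand: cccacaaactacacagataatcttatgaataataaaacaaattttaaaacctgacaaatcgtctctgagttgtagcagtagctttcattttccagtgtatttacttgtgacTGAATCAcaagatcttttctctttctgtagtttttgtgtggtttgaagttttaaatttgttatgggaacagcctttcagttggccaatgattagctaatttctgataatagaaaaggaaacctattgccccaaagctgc

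Of these windows, that of Cybb had the lowest GC content, at 34% with 1 CpG, and that of Nox1 had 38% with 2 CpG. Both lay under the 41.6% that marks the lower quartile of 10401 promoter windows with a peak in 0 of 6 libraries. The window of Nox4, at 67.2% and 20 CpG, was as rich in GC as the open ones and also carried no peak. Open starts were at 53.2% for Nqo1, 60% for Cyba, 63.6% for Sod2 and 70.4% for Nfe2l2, around a median of 61.2% over 6134 windows with a peak in 6 of 6. Sod1 stood at 66.4% with 26 CpG. GC content alone did not part the open from the closed starts among these 8 genes, as Nox4 shows.

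GC boxes stood in 6 of the 8 windows, and 42.6% of all 21263 windows held one. Sod2 held 4, starting at positions -124, -109, -91 and -67 counted from the base before the start as -1, each under a peak in 6 of 6 libraries. Sod1 also held 4 (pairwise overlapping), Nfe2l2 held 3, Cyba and Nqo1 held 2 and Nox4 held 1. The antioxidant response element core was present in Nfe2l2, as TGACTCCGC at -240 to -232, and in Sod1, as GCGTGGTCA on the other strand at -56 to -48. Of all windows 10.4% held this core. A peak lay over it in 5 of 6 libraries at Nfe2l2 and in 4 of 6 at Sod1. TATA boxes were found at -37 in Sod1 and at -29 in Nqo1, against 11.6% of all windows. The AP-1 letters were found in Cybb, as TGAATCA at -139 to -133, under a peak in 0 of 6 libraries, and in 6.13% of all windows. The AT-rich letters ATTAAA stood in 0 of the 8 windows and 11% of all, and the E-box in 0 of 8 and 6.63% of all. A kappaB pattern was in 6 of 8 windows and 51.8% of all, and it overlapped GC boxes in Cyba and Sod2, so it is not capitalised. These matches describe letters and not bound sites.

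The oxidase genes for catalytic subunits held no region present in 6 of 6 libraries. Cybb had no peak in any library across 52.5 kb of gene and both flanks, and 19% of all 21887 protein-coding genes likewise had no region in their window. Nox1 and Nox4 had 3 regions each, and 0 of these 6 were present in 6 of 6 libraries. Including Sod1, 4 of the 10 windows had 0 regions in 6 of 6 libraries, against 37.4% of all genes, so this count was near the background.

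At Nox4, the region found most often lay inside the gene on chromosome 7, at 87331284 to 87331786, 84.9 kb downstream of the start. Its fold enrichment, which the authors' caller gave as tags at the summit relative to the local background in that library, was 5.01 and 5.23 in control replicates 1 and 3 and 3.88 in knockdown replicate 3. The other 3 libraries had no peak there. These peaks rested on 7, 6 and 4 tags at the summit. The other regions of Nox4 were seen in 1 library each, control replicate 1 and knockdown replicate 1, on 5 tags each. At Nox1, a region on chromosome X, at 134116522 to 134116769, lay at -4.79 kb from the start used for the promoter window (upstream of it) but inside the RefSeq gene. It had a fold enrichment of 5.09 in knockdown replicate 2 and 3.52 in knockdown replicate 3. It rested on 5 and 3 tags and was absent from the control libraries, a pattern shared by 2.56% of all regions. The other regions of Nox1 were present in knockdown replicate 2 alone, inside the gene, and in control replicate 3 alone. That of control replicate 3, at 134137804 to 134138010, rested on 4 tags. It lay 0.093 kb beyond the higher-coordinate end of the RefSeq gene, from which this minus-strand gene is read. Of the 6 regions of Nox1 and Nox4, 4 were thus seen in 1 library, 2 of them in a control and 2 in a knockdown library.

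**Figure D1:**
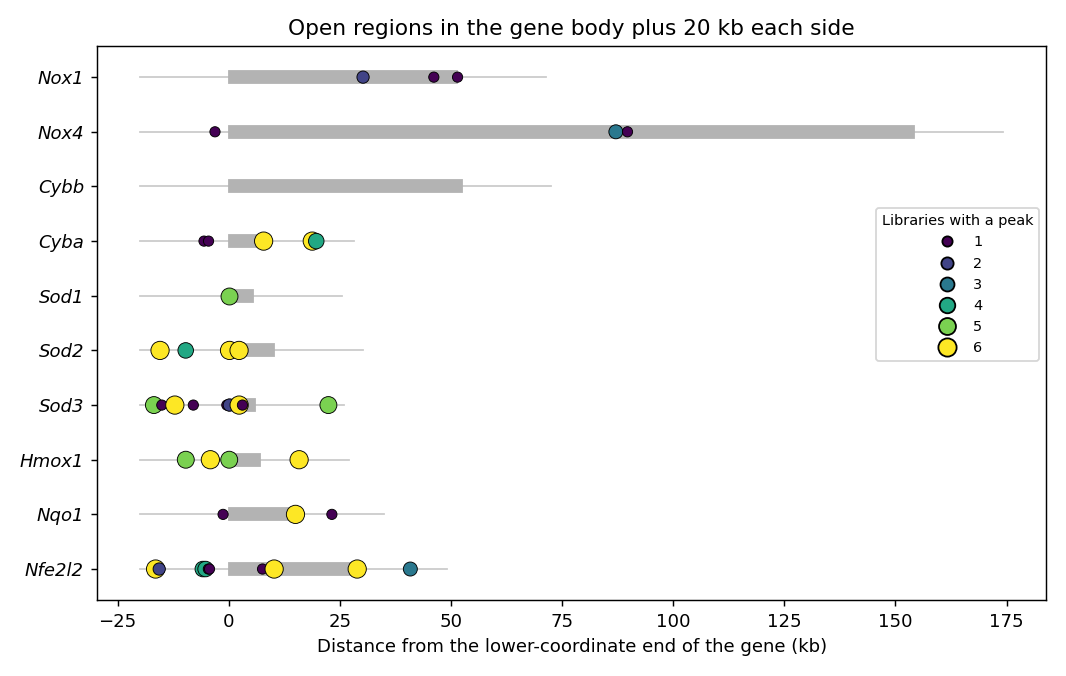
Regions within the body and 20 kb flanks of each gene, by distance in kb from the lower-coordinate end of the gene, with the gene body in grey and colour and size giving the number of libraries with a peak. Cybb has no region, Nox1 and Nox4 have regions in at most 2 and 3 libraries, and Nfe2l2 and Sod3 have 10 and 9 regions.

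Cyba, which serves all of these oxidases as p22phox, differed from the catalytic subunit genes in having an open start in every library. Its start region, chromosome 8 from 122432135 to 122433121, reached a fold enrichment of 6.78, 5.82 and 7.21 across control replicates 1 to 3 and 6.33, 7.03 and 4.65 across knockdown replicates 1 to 3. The groups overlapped, with means of 6.60 ± 0.715 and 6.01 ± 1.22 (SD, n = 3). In strength it was an ordinary peak, above 26.8% to 50.4% of the peaks of its library by −log10 p. A stronger region in the same window, at 122443201 to 122443937, lay over the start of Mvd, a gene of the mevalonate pathway. It had a fold enrichment of 10.2, 7.01 and 13.0 in control cells and 10.9, 9.23 and 9.19 in knockdown cells. Next to it, a region at 122444226 to 122444703 was missing in control replicate 2 and knockdown replicate 1. The 2 remaining regions of the Cyba window were each seen in 1 control library.

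Among the dismutase genes, Sod2 had the strongest start. Its region on chromosome 17, at 13007644 to 13008393, held 44, 27 and 49 tags at the summit across control replicates 1 to 3 and 41, 51 and 27 across knockdown replicates 1 to 3. Fold enrichment was 13.1, 10.6 and 13.3 in control cells and 12.7, 13.4 and 10.6 in knockdown cells. The lowest value of each group was that of its shallowest library, and the means were 12.3 ± 1.5 and 12.2 ± 1.47 (SD, n = 3). In every library this peak stood above at least 95.2% of all peaks by −log10 p. Its summits lay 34 to 142 bases downstream of the start. A second region inside Sod2, at 13009932 to 13010400, was also found in every library, with weaker fold enrichments of 4.02, 4.96 and 3.95 in control cells and 5.50, 5.36 and 4.53 in knockdown cells. The groups overlapped there too. A region at 12991749 to 12993024, 14.8 kb below the gene, lay over the start of Wtap, which encodes a partner of the RNA adenosine methyltransferase. It had 6.56, 6.63 and 6.71 in control cells and 8.91, 8.23 and 6.03 in knockdown cells. Another region, 9.46 kb below the gene, was missing in the 2 shallowest libraries.

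Sod1 had a single region, over its start on chromosome 16 at 90220410 to 90221394. It was present in 3 of 3 control libraries, with fold enrichments of 7.24, 3.57 and 6.42, and in knockdown replicates 1 and 2, with 4.44 and 4.45. Knockdown replicate 3 had no peak there. The 300 bases of the promoter window itself were under a peak in 3 of 3 control libraries and in knockdown replicate 1 alone. Tags at the summit were 10, 4 and 10 in control cells and 6 and 6 in knockdown cells. Control replicate 2, of least depth, lay below both knockdown values, so the groups overlapped. In the 4 deepest libraries, a choice made after seeing the data, control replicates 1 and 3 were above knockdown replicates 1 and 2. The share of all regions with that order was not taken, and the order was not tested. In these libraries the Hmox1 and Nqo1 starts had the same order. The Wtap and Hnrnpa3 starts, the region inside Sod2 and that 16.7 kb below Sod3 had the opposite order. With each list cut to its 33248 strongest peaks, Sod1 became the only control-only region of the set. Control-only means a peak in all 3 control libraries and in 0 of the knockdown libraries, a call met by 0.426% of the 56512 regions of those lists. Control replicate 2 held 33248 peaks, so its list was not cut and its Sod1 peak of 3.57 stayed. The cut removed the stronger peaks of knockdown replicates 1 and 2, at 4.44 and 4.45, so the call came from the cut. Missing only in knockdown replicate 3 was 2.55% of all regions. The parts of depth and of the third siRNA in this cannot be told apart, since that library differs from the other knockdown libraries in both.

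Sod3 had many regions for its size, and few at its own ends. Its window held 9, or 19.6 per 100 kb, a density above that of 99% of all protein-coding genes, whose median was 5.48. Only 2 of the 9 were in 6 of 6 libraries, and the density of such regions was above that of 86.3% of genes. A region inside the gene on chromosome 5, at 52365923 to 52366382, was found in every library, with fold enrichments of 6.24, 5.85 and 6.11 in control cells and 7.81, 6.12 and 9.07 in knockdown cells. Control values were nearly alike, at 6.07 ± 0.201 (SD, n = 3), and the knockdown values were more spread, at 7.67 ± 1.48 (SD, n = 3). Knockdown replicate 2 lay within the control range and the other knockdown libraries above it. The other region in 6 of 6 libraries, at 52351282 to 52352081, lay 11.7 kb below the gene. Its fold enrichments were 4.64, 5.23 and 7.52 in control cells and 5.22, 6.79 and 7.29 in knockdown cells. Regions 16.7 kb below and 16.3 kb above the gene were each missing only in control replicate 2. The upper one, at 52386074 to 52386388, was the strongest, with 13.3 and 11.7 in control replicates 1 and 3 and 8.40, 12.2 and 8.66 in knockdown cells. At the lower-coordinate end of Sod3, a region at 52363832 to 52364040 was seen in control replicate 1 and knockdown replicate 2, at 7.13 and 6.91. The 4 Sod3 regions seen in 1 library held 9 to 12 tags, more than the 4 to 6 tags of the single-library regions of Nox1 and Nox4. Their fold enrichments overlapped, at 4.20 to 6.06 for Sod3 and 4.06 to 5.37 for Nox1 and Nox4.

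Nfe2l2, the gene of NRF2 itself, was open at its start and at a second site inside the gene in every library. The start region on chromosome 2, at 75703497 to 75705343, was 1847 bases wide. Its fold enrichment was 7.09, 7.42 and 9.81 across control replicates 1 to 3 and 10.4, 8.05 and 8.53 across knockdown replicates 1 to 3. Inside the gene, 18.9 kb downstream of the start, a narrower region at 75685472 to 75685996 was stronger, with 10.2, 8.6 and 11.4 in control cells and 12.5, 11.1 and 10.2 in knockdown cells. It held 18 to 42 tags and stood above at least 87.5% of the peaks of each library. Means were 8.10 ± 1.48 and 9.0 ± 1.26 at the start and 10.1 ± 1.39 and 11.3 ± 1.15 inside the gene (SD, n = 3 each), and the groups overlapped at both.

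The Nfe2l2 window held 10 regions, a density above that of 94.2% of all genes. For regions in 6 of 6 libraries its density was above that of 86.1% of genes. One of the 10 regions differed by 2 libraries between the groups. It lay 4.91 kb below the gene, at 75670015 to 75670600, and was present in control replicate 1 at a fold enrichment of 3.76 and in knockdown replicates 1 to 3 at 4.43, 5.42 and 4.6. Peaks in 1 of 3 control and 3 of 3 knockdown libraries were found for 1.72% of all regions. The region rested on 5 tags in the control library and 7, 9 and 6 in knockdown cells. Weak regions lay close to it on both sides. That at 75669409 to 75669965 was present in control replicates 1 and 3 and knockdown replicates 1 and 2. Those at 75670836 to 75671033 and 75671059 to 75671325 were seen in control replicate 3 alone and knockdown replicate 3 alone. Above the gene, 11.5 kb beyond its start, a region at 75716155 to 75716597 was present in control replicate 3 and knockdown replicates 1 and 2. At the far side of the window, the start of Hnrnpa3, which encodes an RNA-binding protein, was open in 6 of 6 libraries. Its region, at 75658716 to 75659400, showed fold enrichments of 7.39, 8.79 and 9.51 in control cells and 9.61, 11 and 10 in knockdown cells. Every knockdown value was above every control value, the only such case among the 13 regions of the set present in 6 of 6 libraries. Fold enrichments of the groups did not overlap in 5.71% of all 20742 such regions, so 1 of 13, or 7.69%, was near the background.

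**Figure D2:**
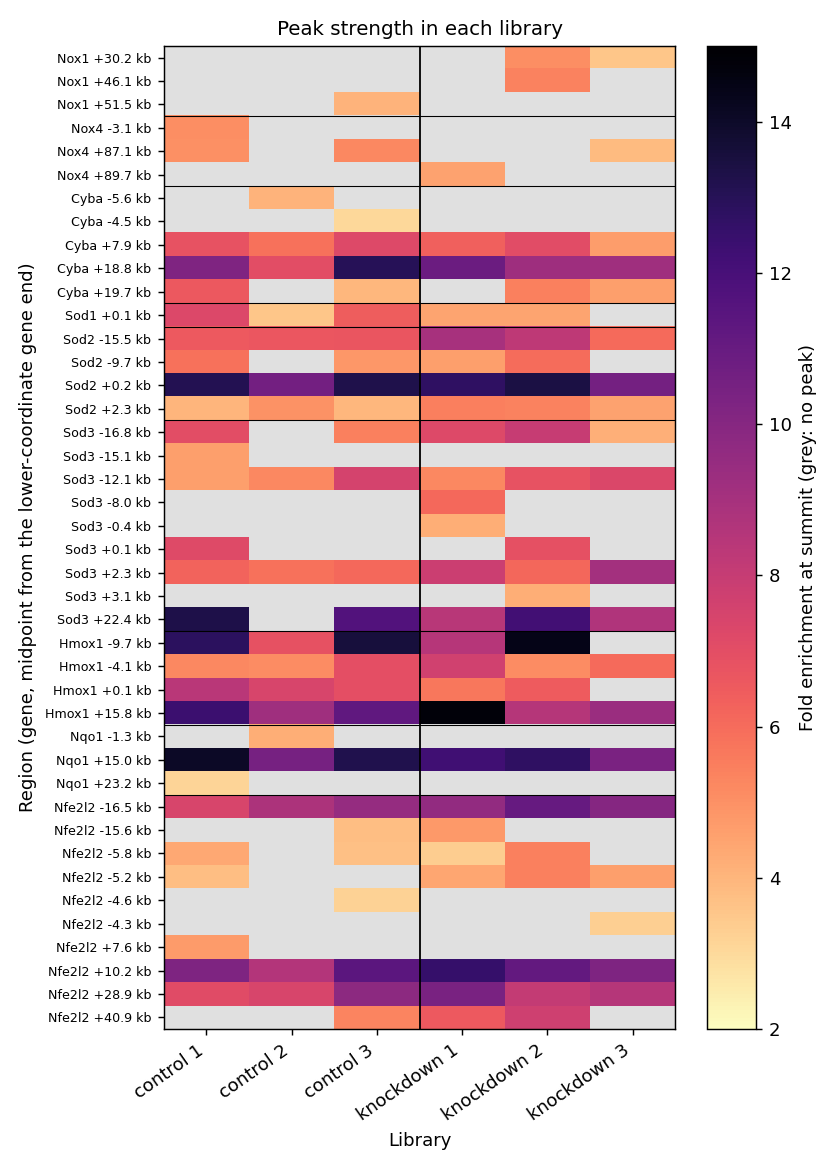
Fold enrichment at the summit of the strongest peak in each of the 42 regions (rows, by gene and by distance in kb of the midpoint from the lower-coordinate gene end) in each library (columns), with grey where the library had no peak. Rows filled across all 6 libraries number 13, and 15 are filled in 1 library.

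The targets of NRF2 in the set were both open at the start, Nqo1 in every library and Hmox1 in 5 of 6. The start region of Nqo1 on chromosome 8, at 107402834 to 107403660, had fold enrichments of 14.1, 10.5 and 13.2 in control cells and 12.2, 12.7 and 10.4 in knockdown cells. It held 50, 21 and 46 tags in control cells and 37, 41 and 27 in knockdown cells. The groups overlapped (12.6 ± 1.86 and 11.8 ± 1.24, SD, n = 3), and the shallowest library of each was lowest. All 6 summits fell within 11 bases upstream to 39 bases downstream of the start, the narrowest placing among the open starts. The peak ranked above at least 94.7% of the peaks of each library, as the Sod2 start did. Otherwise the Nqo1 window held 2 regions, each in 1 control library.

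Hmox1 had 3 regions at and below its lower-coordinate end, where the gene is known to start, and the known upstream enhancers of the gene lie on that side. The start region on chromosome 8, at 75093478 to 75093987, had fold enrichments of 8.35, 7.43 and 6.95 in control cells and 5.71 and 6.51 in knockdown replicates 1 and 2, and no peak in knockdown replicate 3. All 3 control values were above both knockdown values, a pattern found in 4.23% of the 2173 regions missing only in that library. It was not seen at the Sod1 start or at the far Hmox1 region, and was not tested. The middle region, 3.83 kb below the gene at 75089182 to 75089790, was present in 6 of 6 libraries, with 5.2, 5.14 and 6.96 in control cells and 7.66, 5.12 and 6.05 in knockdown cells. The farthest, 9.51 kb below the gene at 75083807 to 75084107, was a narrow and strong region with 12.9, 6.84 and 13.5 in control cells and 8.46 and 14.4 in knockdown replicates 1 and 2. It too had no peak in knockdown replicate 3. On the other side, the start of Mcm5, a subunit gene of the replicative helicase, was open in 6 of 6 libraries at 75109121 to 75109791, with 12.4, 9.19 and 11.2 in control cells and 14.8, 8.52 and 9.34 in knockdown cells. Knockdown replicate 3 was thus called at 2 of the 4 regions of this window.

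The regions missing only in knockdown replicate 3 were those of the Sod1 start, the Hmox1 start and the far Hmox1 region. They were 3 of 42, or 7.14%, against 2.55% of all regions. Missing only in control replicate 2 were 2 of 42, or 4.76%, against 6.09% of all regions. Missing only in control replicate 1 or 3, or only in knockdown replicate 1 or 2, were 0 of 42 each, against 0.53%, 0.473%, 0.522% and 0.456% of all regions in that order. In control replicate 2, of 0.950 megatags, the summits of these 3 regions held 4, 13 and 9 tags, and knockdown replicate 3 was at 1.19 megatags. Whether the absence goes with the depth, the library or its siRNA cannot be told apart, as no other library received si-Arid3a#3.

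**Figure D3:**
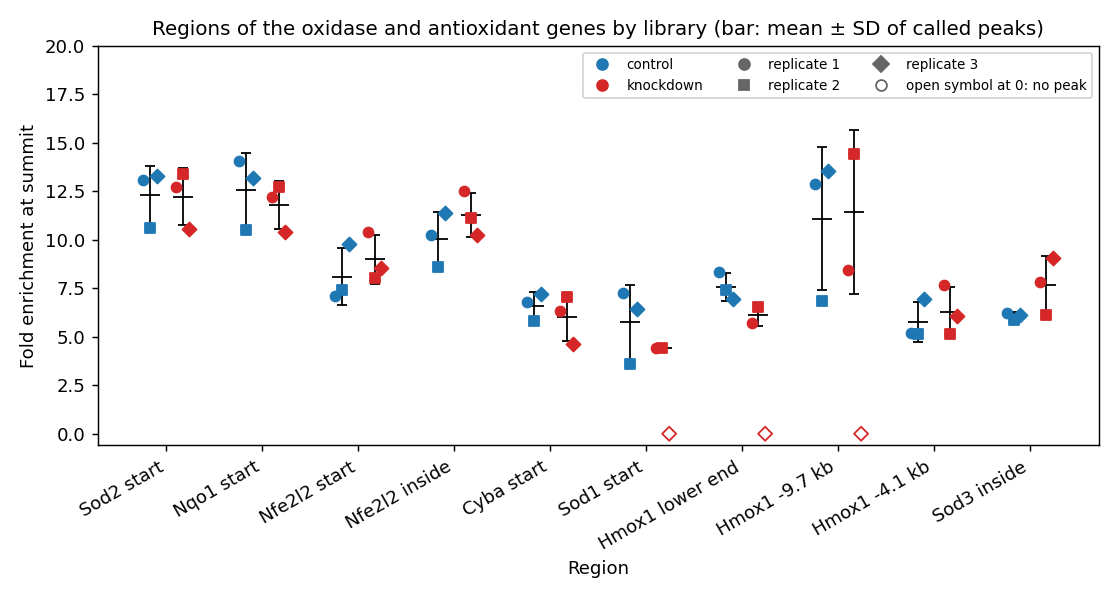
Fold enrichment at the summit of 10 regions of the oxidase and antioxidant genes, by library; symbol shapes stand for replicates, bars for the mean ± SD of the libraries with a peak, and an open symbol at 0 for a library without one. At the 7 regions with a peak in every library the control and knockdown values overlap, and knockdown replicate 3 has no peak at Sod1 and at 2 regions of Hmox1.

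Across the whole set, the groups held equal numbers of regions. The control libraries had a peak in 28, 18 and 27 of the 42 regions and the knockdown libraries in 26, 27 and 20. Means were 24.3 ± 5.51 and 24.3 ± 3.79 (SD, n = 3), a difference of 0 (exact two-sided permutation p = 1). The difference, knockdown minus control, was 2.17 regions without knockdown replicate 3 and -3.17 without control replicate 2. The shallowest library of each group had the fewest regions. Open bases in the windows came to 12.6, 9.58 and 12.8 kb in control cells and 10.9, 12.1 and 9.38 kb in knockdown cells. The difference in open bases was -0.856 kb, less than the SD of either group (exact two-sided permutation p = 0.5). It was -0.149 kb without knockdown replicate 3 and -1.89 kb without control replicate 2, with the values without each other library between these. With 3 libraries against 3 the smallest p that the test allows is 0.1.

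As a share of all peaks of a library, peaks in the windows were 0.0545%, 0.0541% and 0.0538% in control cells and 0.0534%, 0.0527% and 0.0504% in knockdown cells. All knockdown values were below all control values. The means were 0.0541% ± 0.000399 and 0.0522% ± 0.00154 (SD, n = 3), a difference of -0.00197 percentage points (exact two-sided permutation p = 0.1, the smallest possible, and 0.3 after Benjamini-Hochberg adjustment over the 3 tests). The share rests on 18 to 28 peaks per library, and without knockdown replicate 3 the difference was -0.00111 percentage points. With lists of equal length the difference had the opposite sign, 0.00201 percentage points.

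**Figure D4:**
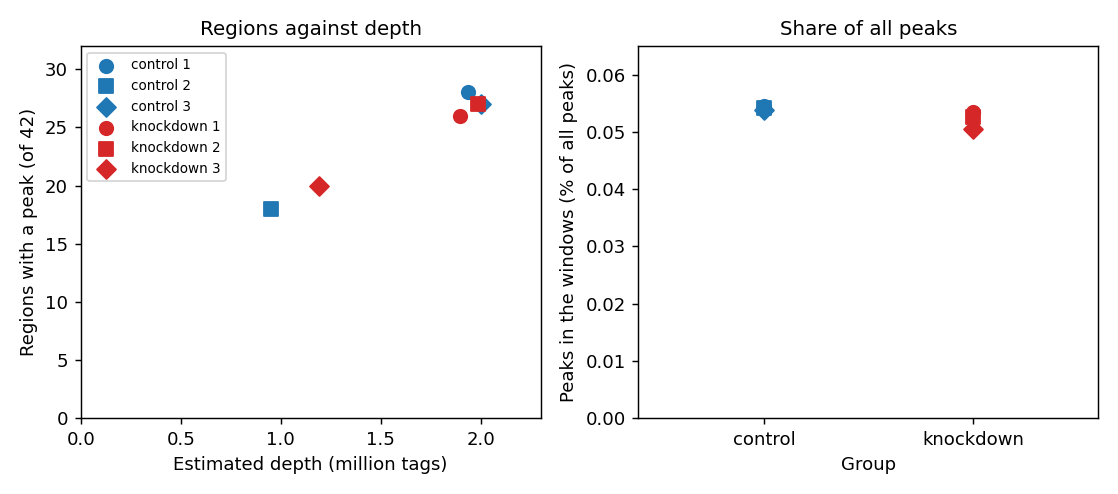
Left, the number of the 42 regions with a peak against the estimated depth in megatags of each library; right, the share of all peaks that lay in the windows, in percent, by group. Control replicate 2 and knockdown replicate 3 lie lowest at left, with 18 and 20 regions, and at right the control libraries sit at 0.0538% to 0.0545% and the knockdown libraries at 0.0504% to 0.0534%.

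None of the 42 regions was control-only and none was knockdown-only, against 0.277% and 0.432% of all regions. These shares amount to less than 1 region of either kind in 42, so a count of 0 is near the background. Regions in 6 of 6 libraries numbered 13, or 31%, against 24.4% of all regions and 26.1% of those within 20 kb of a protein-coding gene. Regions in 1 library numbered 15, or 35.7%, against 33.5% of all. Of the 13, 4 lay over the start of Cyba, Sod2, Nqo1 or Nfe2l2 and 4 over the start of a neighbouring gene, while 3 lay inside Sod2, Sod3 or Nfe2l2 and 2 below Sod3 or Hmox1. The mean fold enrichment was higher in the knockdown group in 8 of the 13, or 61.5%, against 61.2% of all regions in 6 of 6 libraries. Fold enrichment is scaled within each library and was not tested per region.

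Other genes of the same chemistry were described by their promoter windows. Over all 17492 genes with such a window, 31.8% had a peak there in 6 of 6 libraries and 46.4% in 0 of 6. Among the 8 genes of the set with a window, 4 had a peak in 6 of 6 (Cyba, Sod2, Nqo1 and Nfe2l2) and 3 in 0 of 6 (Nox1, Nox4 and Cybb). Of further oxidase subunits, 2 of 10 were open in 6 of 6 libraries and 6 of 10 in 0 of 6. The open ones were Cybc1, which encodes a chaperone of the NOX2 complex, and Poldip2, whose product binds p22phox. Duox1, Duox2, Duoxa1, Duoxa2, Ncf1 and Nox3 made up the closed ones. The Duox and Duoxa genes lie together on chromosome 2, between 122279246 and 122347972, but were counted as separate genes. Noxo1 and Noxa1, partners of NOX1, were in between, with a promoter peak in 5 and 2 libraries. That of Noxa1 was seen in 2 of the 3 knockdown libraries and in 0 of the 3 control libraries. Of all merged regions 2.56% had that pattern, and its share over promoter windows was not taken. In the related lists below, promoter peaks also differed by 2 libraries at Mafk (1 control, 3 knockdown). At G6pdx the difference went the other way (3 control, 1 knockdown).

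The list of genes for peroxide removal held Cat (catalase), Gpx1, Gpx4 and Gpx8 (glutathione peroxidase family), each with a promoter peak in 6 of 6 libraries. It also held the thioredoxin genes Txn1 and Txn2 and the sestrin genes Sesn1 and Sesn2, likewise open in 6 of 6. Across the list, a promoter peak was found in 6 of 6 libraries in 11 of 15 cases and in 0 of 6 in 1 case, Gpx3. NRF2 target and glutathione genes had 9 of 14, such as the ferritin genes Fth1 and Ftl1, Blvrb (biliverdin reductase B) and Gss (glutathione synthetase), and in 0 of 6 Hmox2. Of the regulators of NRF2, 3 of 11 were open in 6 of 6 libraries: Maff, a small Maf partner, Nfe2l1, a relative of NRF2, and Rbx1, a ubiquitin ligase subunit. Bach2, Cul3 and Sqstm1 were without a promoter peak in any library. Keap1, the repressor of NRF2, and Bach1, which competes with NRF2 for its sites, had one in 2 libraries each, 1 control and 1 knockdown. Genes of these lists without a promoter window, 13 of 63, are not in these counts.

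A group-specific region lay in the window of 1 of the 63 genes. Slc7a11, the cystine transporter gene that feeds glutathione synthesis, had a control-only region inside the gene on chromosome 3 at 50456633 to 50457001. Its fold enrichments were 7.97, 4.36 and 7.56 in control replicates 1 to 3, with a smallest −log10 q of 3.57. Of all protein-coding genes, 1.24% had a control-only and 1.96% a knockdown-only region in their window, so 1 and 0 of 63 genes were near the background. The promoter window of Slc7a11 itself was open in 6 of 6 libraries.

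**Figure D5:**
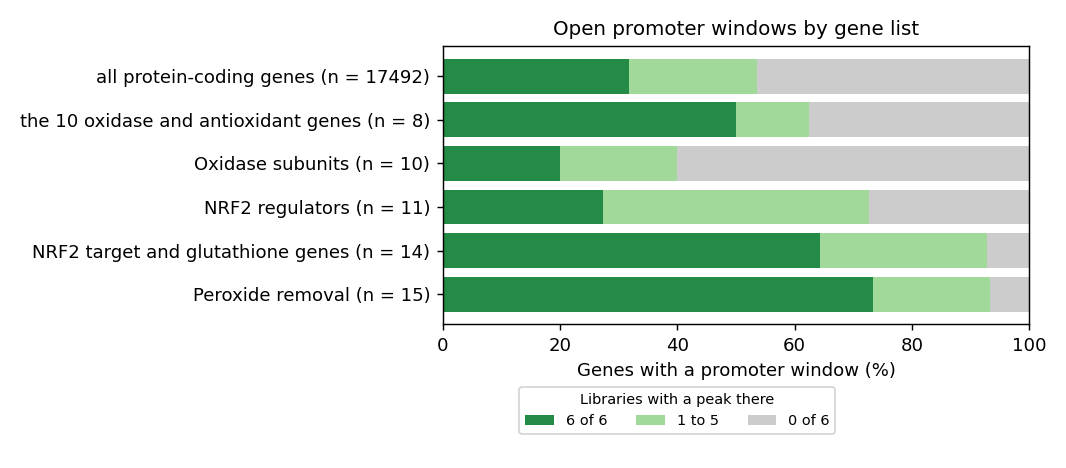
Share of genes, in percent of those with a promoter window (n in brackets), with a peak in that window in 6 of 6, in 1 to 5 or in 0 of 6 libraries, for all protein-coding genes, the 10 oxidase and antioxidant genes and 4 lists of related genes. Oxidase subunits have 2 of 10 open in 6 of 6 libraries and peroxide removal genes 11 of 15, against 31.8% of all genes.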

How the data were processed

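The 10 genes, the related gene lists and the markers were chosen with earlier results of these data known. Per the submitters' processing notes, Bowtie2, Picard and MACS2 were used with build mm10; versions, parameters, duplicate handling, Tn5 shift and caller control were not given in the sources used here. The deposited lists, 1 for each library and called separately, give each peak with its position, summit, a fold ratio at the summit, a −log10 p, a −log10 q and a score that is the −log10 q times 10. Kept duplicates or a missing shift could change weak calls and move summits by a few bases.

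Peaks sharing at least 1 base were merged across libraries, and a library was present where 1 of its peaks overlapped the region. Where a library had several peaks in a region, the one of highest −log10 p gave its values. Genes and promoter windows (250 bases before to 50 after the start) came from RefSeq, GRCm38.p6, in which all 10 symbols matched and 8 had a window. Genes without a window were read within 250 bases of either gene end. Positions count from 1. Exons and introns were not told apart.

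Tags at the summit were recovered as the whole number from 1 to 600 that gives the deposited −log10 p within 0.001 under the Poisson model of MACS2, which held for at least 99.996% of peaks. Depth in megatags was estimated from the most frequent recovered background, the width of the narrowest peak and an assumed genome size. It serves to rank libraries. Libraries of the groups were compared in an exact two-sided permutation test over 20 relabellings, with Benjamini-Hochberg adjustment over 3 tests. Regions were counted and set beside the same share of all regions. Regions described in full were those at each start, the 2 strongest in 6 of 6 libraries per window, group-specific ones, and those differing by 2 libraries between groups; the others were added with values known. Alternatives were windows of 10 and 50 kb, peaks with a −log10 q of 5 or more, cover of at least 50% of a region, lists of equal length, each library left out, a replicate block and, chosen after seeing the data, the 4 deepest libraries. Merging and tag recovery were tested on simulated data. Python 3.11.15, numpy 2.4.6, pandas 2.3.3 and scipy 1.17.1 were used.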

Additional observations from a re-analysis of the deposited data

How the results depend on the processing

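The number of regions in 6 of 6 libraries, 13, was 8 when a peak counted from 50% cover of its region upward and 20 in the 4 deepest libraries, a setting chosen after seeing the data, where a region needs peaks in fewer libraries by construction. Leaving out 1 library gave 13 to 16, and windows of 10 or 50 kb gave 9 and 17. Control-only regions, 0, became 1 with lists of equal length (the Sod1 start, where the cut removed the knockdown peaks). They were also 1 in the 4 deepest libraries (inside Nox4, where 2.7% of all regions were control-only), and stayed 0 without each library. Knockdown-only regions, 0, were 0 to 1 without a library. The 1 without control replicate 1 lay below Nfe2l2, next to a region seen in both groups (1.32% of all regions were knockdown-only there). The 1 without knockdown replicate 1 lay inside Nox1 (1.09% of all regions). The difference in regions per library, 0, ran from -3.17 without control replicate 2 to 2.17 without knockdown replicate 3. The share of peaks in the windows, -0.00197 percentage points, reversed to 0.00201 with lists of equal length, and the cause was not tested; without a library it ran from -0.00260 to -0.00111. Open bases ran from -1.89 to -0.149 kb without a library. With the replicate block, pairing same-numbered libraries, the differences were 0 regions, -0.00197 percentage points (exact paired p = 0.25, the smallest possible) and -0.856 kb. The labels name no pairing, and deviations of same-numbered libraries correlated at 0.0414, -0.0542 and -0.0521 over 20742 regions, so the numbers were not taken to pair the samples. Peaks of the regions seen in 1 or 2 libraries held as few as 3 tags at the summit, and the part of depth in them was not tested.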
